A study of Mus musculus with 6 samples.

Results

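The genes described here are 10 genes of the Hippo and YAP/TAZ pathway: the coactivators *Yap1* and *Wwtr1* (the gene of TAZ), the DNA-binding partners *Tead1* and *Tead3*, the kinases *Lats1* and *Lats2*, the angiomotin family gene *Amotl2*, and the target genes *Ctgf*, *Cyr61* and *Ankrd1*. They were chosen by symbol, and all 10 have a value among the 24982 genes listed for each library. All 10 were also among the 12409 genes whose coverage was high enough to be tested.

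The LATS kinases phosphorylate YAP and TAZ, which are then held in the cytoplasm or degraded, while the unphosphorylated proteins enter the nucleus and act on genes through the TEAD factors. *Ctgf*, *Cyr61* and *Ankrd1* are widely used as readouts of that activity, and *Amotl2* and *Lats2* are both targets and inhibitors of it. In the epidermis the pathway is known for its activity in basal cells and for its control by cell contact and junctions. It acts largely through phosphorylation and the place of the proteins in the cell, which RNA-seq does not measure.

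The RNA came from keratinocyte lines of neonatal C57BL/6 mouse skin. The KSFM-Ca2+ cells had been derived and kept in a serum-free medium low in calcium, and the DKSFM cells had been adapted from them to a defined medium with more calcium, so that the effects of medium and of culture history cannot be told apart. The study described KSFM-Ca2+ lines as tetraploid and hyperdiploid, and primary keratinocytes as mostly tetraploid or close to it. It gives no karyotype of the adapted DKSFM cells. Each line gave 3 libraries. The study speaks in general of independent experiments and biological samples, but what a replicate was is not stated for these libraries, so the p-values measure only the spread between them.

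The files list a coverage for each gene to 1 decimal. How it was computed is not stated, and it is read here as an average per base, on the ground that the smallest values above 0 were larger for short transcripts (median 0.35 for 100 to 300 bases, 0.1 above 600). Total coverage was 1601676 in KSFM-Ca2+ replicate 1, 1238411 in replicate 2 and 1057750 in replicate 3. In the DKSFM cells it was 1174348, 1239438 and 1170675. Coverage scaled between the libraries is called normalized coverage, and levels of different genes are set side by side only on that reading. Levels with an error are means of 3 libraries ± SD. Fold changes are DKSFM over KSFM-Ca2+, as log2(normalized coverage + 0.1) ± SE, a scale that makes changes of genes near 0.1 look smaller. They were tested with limma over all 12409 genes, with Benjamini-Hochberg adjusted p-values and a threshold of 0.01. A gene is called when it also differs by at least 2-fold. In bulk RNA, fewer cells expressing a gene and less RNA per cell cannot be told apart.

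The DKSFM cells had more RNA of *Yap1*, *Tead3*, *Lats2* and *Amotl2* and less of *Wwtr1*, *Tead1*, *Ctgf*, *Cyr61* and *Ankrd1* than the KSFM-Ca2+ cells. The change of *Lats1* did not pass the threshold. The 3 readout genes thus all fell, while the 2 coactivator genes moved in opposite directions, as did *Tead1* and *Tead3*. In numbers, 9 of the 10 genes passed the adjusted p threshold, 4 higher and 5 lower in DKSFM, where 72.6% of all tested genes passed it, 35.3% higher and 37.3% lower. Only *Tead3* was called higher, beside 13.1% of all tested genes, and only *Ankrd1* was called lower, beside 10.6%. For all 10 genes the libraries of one line did not overlap those of the other, which held for 83.3% of the tested genes. Most genes differed between the lines, and these counts are near those of genes in general. The median size of the log2 fold change, whatever its sign, was 0.78 for the 10 genes and 0.49 for all tested genes.

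**Figure D1:**
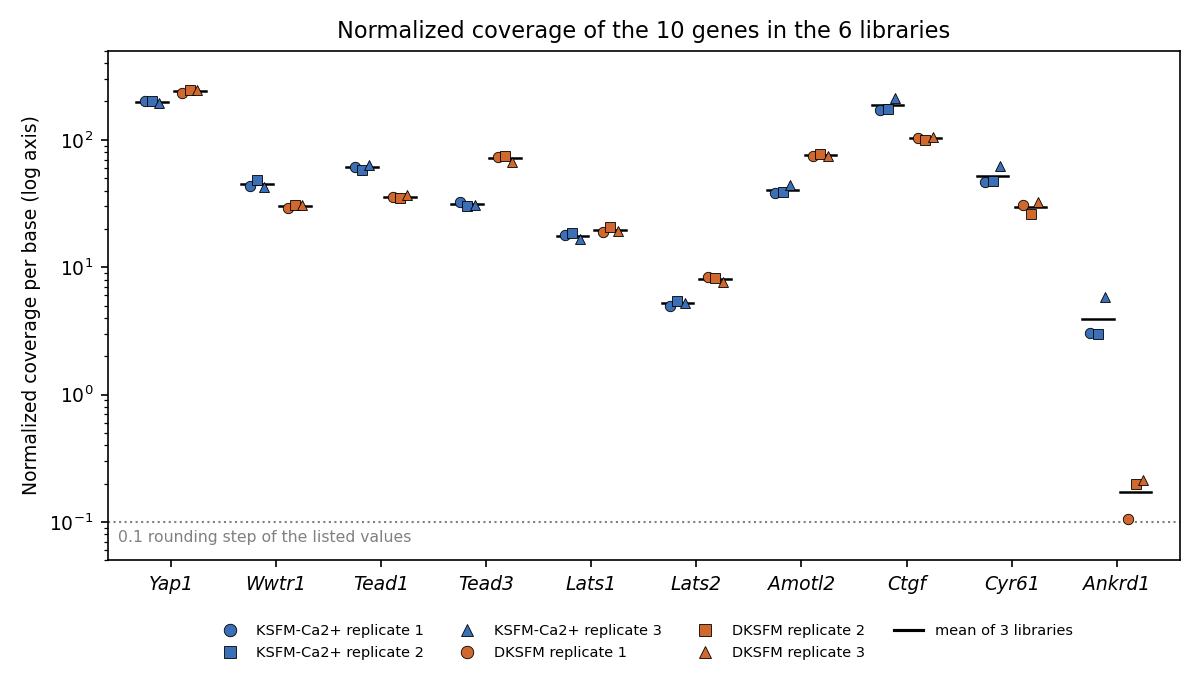
Normalized coverage per base (log axis) of the 10 genes in the 3 KSFM-Ca2+ libraries (blue) and the 3 DKSFM libraries (orange), with a symbol for each replicate and a line at each mean. The lines do not overlap for any of the 10 genes, *Ankrd1* lies near the 0.1 rounding step in DKSFM, and KSFM-Ca2+ replicate 3 stands above replicates 1 and 2 for *Ctgf*, *Cyr61*, *Ankrd1*, *Amotl2* and, by less, *Tead1*.

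By level, *Yap1* was the most abundant of the 10 genes in both lines, and *Ctgf* came next. In the KSFM-Ca2+ cells *Tead1*, *Cyr61*, *Wwtr1* and *Amotl2* followed, and each of these overlapped its neighbour in that order, as *Ctgf* did *Yap1*, with *Tead3* below them. In the DKSFM cells *Amotl2* and *Tead3* followed *Ctgf*, then *Tead1*, and then *Wwtr1* and *Cyr61*, which overlapped each other. *Lats1*, *Lats2* and *Ankrd1* were the least abundant in both lines, in this order, and *Lats2* and *Ankrd1* overlapped in the KSFM-Ca2+ cells.

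TEAD factors bind a short motif, CATTCC or GGAATG on the other strand, and the stretches printed here show which of these genes carry it near a start. RefSeq promoter windows (GRCm38.p6, 250 bases before to 50 after a start) were found for 8 of the 10 genes, not for *Tead1* and *Ctgf*. The 250 bases before a start held a match for 6 of the 8 genes, *Yap1*, *Wwtr1*, *Tead3*, *Amotl2*, *Ankrd1* and *Cyr61*, and none for *Lats1* and *Lats2*. Of all 32851 windows 12.6% hold a match in those bases. Several of these genes have more than 1 window, so this share of windows is not a share of genes. The AP-1 motif TGANTCA, held by 6.75% of all windows, and the CArG box of SRF, held by 1.47%, had no match there in any of the 8 genes. Each stretch has 30 bases, 5′ to 3′ on the strand of the gene, with the match in capitals. They are shown because they belong to genes that moved in both directions, the readouts *Ankrd1* and *Cyr61* among them.
*Ankrd1*, chr19:36120037-36120066, minus strand, 210 bases before the start: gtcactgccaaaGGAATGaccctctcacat
*Ankrd1*, chr19:36119950-36119979, minus strand, 123 bases before the start: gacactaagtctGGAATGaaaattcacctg
*Cyr61*, chr3:145650071-145650100, minus strand, 103 bases before the start: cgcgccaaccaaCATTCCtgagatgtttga
*Amotl2*, chr9:102717727-102717756, plus strand, 65 bases before the start: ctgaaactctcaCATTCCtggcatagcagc
*Tead3*, chr17:28350970-28350999, minus strand, 182 bases before the start: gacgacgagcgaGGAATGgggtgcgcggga
*Yap1*, chr9:8004720-8004749, minus strand, 141 bases before the start: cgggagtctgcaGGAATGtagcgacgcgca
*Wwtr1*, chr3:57576029-57576058, minus strand, 136 bases before the start: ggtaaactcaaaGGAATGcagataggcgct
The stretches of *Cyr61*, *Tead3*, *Yap1* and *Wwtr1* lie outside the gene as annotated in GENCODE M21, and those of *Ankrd1* and *Amotl2* lie in an exon annotated there. *Tead3* has 2 more matches, not printed, 123 and 114 bases before another of its starts and in an exon of the gene. A match describes the letters in the window, and binding was not measured.

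*Yap1* (chromosome 9, 7931999 to 8004596, minus strand) encodes YAP, a coactivator with no DNA-binding domain of its own. Its normalized coverage was 201, 201 and 196 in KSFM-Ca2+ replicates 1 to 3 and 234, 245 and 246 in DKSFM replicates 1 to 3. The DKSFM libraries were all higher, by a small margin. The log2 fold change was 0.28 ± 0.03 (limma, Benjamini-Hochberg adjusted p = 4.38e-05), or 1.21-fold. *Wwtr1* (chromosome 3, 57455649 to 57575910, minus strand) encodes TAZ, a paralog of YAP that binds the same TEAD factors. Its coverage was 43.7, 48.1 and 42.4 in the KSFM-Ca2+ libraries and 29.1, 31.0 and 30.7 in the DKSFM libraries. All 3 DKSFM libraries were lower, opposite to *Yap1*. *Wwtr1* had a log2 fold change of -0.56 ± 0.06 (limma, Benjamini-Hochberg adjusted p = 2.66e-05).

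Set side by side, *Yap1* exceeded *Wwtr1* in every library, and more so in the DKSFM cells. It made up 82.2%, 80.7% and 82.2% of their summed coverage in the KSFM-Ca2+ libraries and 89.0%, 88.8% and 88.9% in the DKSFM libraries. These ranges did not overlap. A two-sided exact permutation test over the libraries gave p = 0.1, the smallest that 3 libraries against 3 allow. The ratio of *Yap1* to *Wwtr1* was 4.47 ± 0.250 in KSFM-Ca2+ and 7.99 ± 0.0728 in DKSFM cells, and their sum was 244 ± 5.57 and 272 ± 7.53.

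*Tead1* (chromosome 7, 112679318 to 112906807, plus strand) encodes one of the TEAD transcription factors that bring YAP and TAZ to DNA. Its normalized coverage was 61.6, 57.8 and 62.9 in the KSFM-Ca2+ libraries and 35.8, 34.9 and 36.6 in the DKSFM libraries. Every DKSFM library lay well below every KSFM-Ca2+ library. *Tead1* fell, with a log2 fold change of -0.76 ± 0.04 (limma, Benjamini-Hochberg adjusted p = 8.38e-07). *Tead3* (chromosome 17, 28331671 to 28350817, minus strand) encodes another TEAD factor. Its coverage was 32.8, 30.4 and 30.6 in the KSFM-Ca2+ libraries and 73.2, 74.0 and 67.3 in the DKSFM libraries. Each DKSFM value was more than 2 times the highest KSFM-Ca2+ value. *Tead3* rose by a log2 fold change of 1.19 ± 0.05 (limma, Benjamini-Hochberg adjusted p = 1.65e-07), or 2.29-fold. Against a 2-fold change itself, limma's treat gave a Benjamini-Hochberg adjusted p of 0.0177, which ends the call.

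*Tead2* and *Tead4* encode the other TEAD factors. *Tead2* had normalized coverages of 9.76, 9.03 and 8.03 in KSFM-Ca2+ and 29.8, 35.0 and 28.7 in DKSFM libraries. By its mean it was the least abundant gene of the family in both lines, though it overlapped *Tead1* in the DKSFM cells, and it rose the most, with a log2 fold change of 1.79 ± 0.10 (limma, Benjamini-Hochberg adjusted p = 6.05e-07). *Tead4* had 42.7, 42.0 and 43.8 in KSFM-Ca2+ and 40.2, 36.4 and 42.6 in DKSFM libraries. Its ranges overlapped, and its log2 fold change of -0.11 ± 0.06 did not pass the threshold (limma, Benjamini-Hochberg adjusted p = 0.118).

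The makeup of the TEAD family differed between the lines. *Tead1* held 42.3% ± 0.914 (SD, n = 3) of the summed *Tead1* to *Tead4* coverage in the KSFM-Ca2+ cells and 20.1% ± 0.761 in the DKSFM cells. *Tead3* held 21.7% ± 0.647 in the KSFM-Ca2+ cells and 40.1% ± 1.48 in the DKSFM cells, where it took the place of *Tead1* as the largest share. The share of *Tead4* went from 29.8% ± 0.617 to 22.3% ± 2.07, and that of *Tead2* from 6.22% ± 0.607 to 17.5% ± 1.67. None of the 4 shares overlapped between the lines. In the two-sided exact permutation test each gave p = 0.1, the smallest possible with 3 libraries against 3, and 0.1 after Benjamini-Hochberg adjustment over the 5 shares tested. Within the DKSFM cells *Tead1* (20.0%, 19.4% and 20.9%) overlapped both *Tead4* (22.5%, 20.2% and 24.3%) and *Tead2* (16.7%, 19.4% and 16.4%). The summed coverage of the 4 genes was 144 ± 4.07 in KSFM-Ca2+ and 178 ± 2.68 in DKSFM cells.

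**Figure D2:**
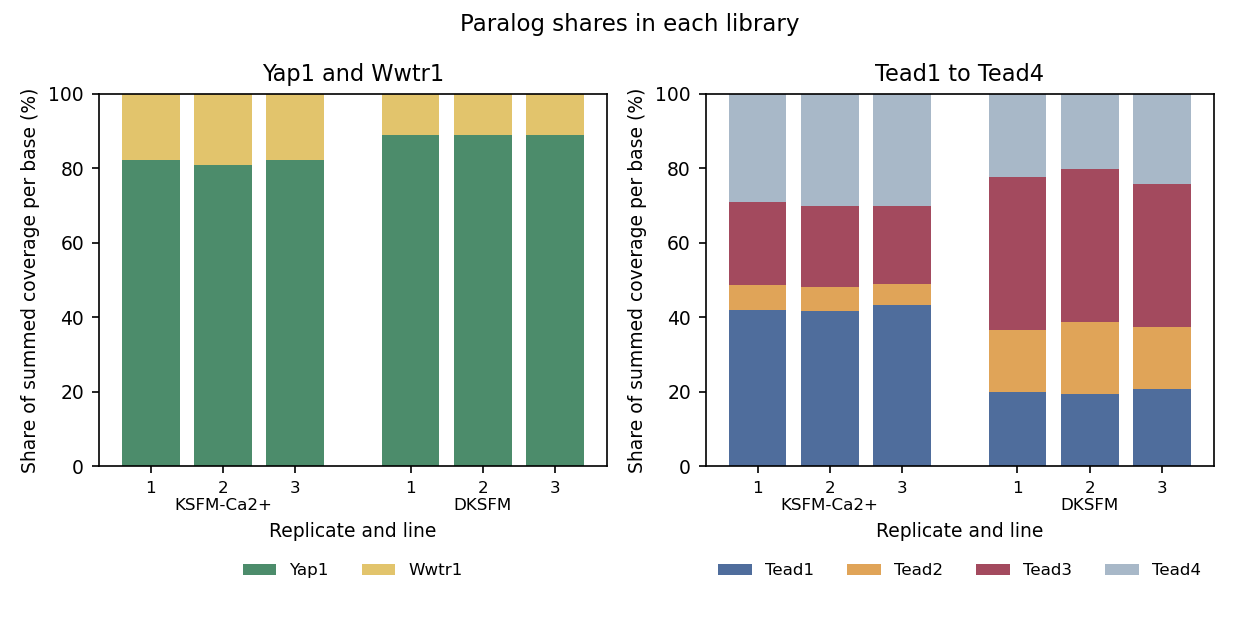
Share (%) of each paralog in the summed normalized coverage per base of *Yap1* and *Wwtr1* (left) and of *Tead1* to *Tead4* (right), with one bar per library, 3 of each line. *Yap1* takes 80.7% to 82.2% in KSFM-Ca2+ and 88.8% to 89.0% in DKSFM libraries, and *Tead3* in place of *Tead1* holds the largest *Tead* share in the DKSFM libraries.

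*Lats1* (chromosome 10, 7681214 to 7716460, plus strand) encodes a kinase that phosphorylates YAP and TAZ. Its normalized coverage was 18.0, 18.5 and 16.6 in KSFM-Ca2+ and 18.7, 20.8 and 19.4 in DKSFM libraries. The highest KSFM-Ca2+ value lay just under the lowest DKSFM value. With a log2 fold change of 0.15 ± 0.06, *Lats1* did not pass the threshold (limma, Benjamini-Hochberg adjusted p = 0.0582). *Lats2* (chromosome 14, 57689662 to 57758388, minus strand) encodes the other LATS kinase and is itself a target of YAP and TAZ. It had coverages of 4.96, 5.46 and 5.20 in KSFM-Ca2+ and 8.36, 8.28 and 7.63 in DKSFM libraries. All DKSFM libraries were higher. *Lats2* rose by a log2 fold change of 0.63 ± 0.08 (limma, Benjamini-Hochberg adjusted p = 9.56e-05). The ratio of *Lats1* to *Lats2* was 3.41 ± 0.213 in KSFM-Ca2+ and 2.43 ± 0.165 in DKSFM cells, with p = 0.1 in the two-sided exact permutation test.

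*Amotl2* (chromosome 9, 102716672 to 102733418, plus strand) encodes an angiomotin-like protein that binds YAP at junctions, and its gene is also a YAP/TAZ target. Its normalized coverage was 38.3, 39.0 and 43.9 in KSFM-Ca2+ and 75.1, 78.0 and 75.2 in DKSFM libraries. The lines were far apart, and the DKSFM libraries lay within a narrow range. *Amotl2* rose by a log2 fold change of 0.92 ± 0.06 (limma, Benjamini-Hochberg adjusted p = 1.23e-06), just under 2-fold. Its paralog *Amotl1* fell, from 74.8 ± 1.24 in KSFM-Ca2+ to 41.1 ± 0.697 in DKSFM cells (log2 fold change -0.86 ± 0.03, limma, Benjamini-Hochberg adjusted p = 9.74e-08). *Amot* was listed at 0.2 or less in every library and was not tested. *Amotl1* and *Amot* were chosen for mention after their values were seen.

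*Ctgf* (chromosome 10, 24595442 to 24598683, plus strand, *Ccn2* in the annotation) encodes a secreted matricellular protein. Its normalized coverage was 171, 174 and 213 in KSFM-Ca2+ and 103, 99.5 and 105 in DKSFM libraries. It was abundant in both lines, its mean being above that of 89.4% of the tested genes in KSFM-Ca2+ and 81.3% in DKSFM cells. *Ctgf* fell, with a log2 fold change of -0.85 ± 0.08 (limma, Benjamini-Hochberg adjusted p = 1.75e-05). *Cyr61* (chromosome 3, 145646976 to 145649981, minus strand, *Ccn1* in the annotation) encodes a related matricellular protein. Its coverage was 47.0, 47.7 and 62.6 in KSFM-Ca2+ and 30.9, 26.3 and 32.2 in DKSFM libraries. All DKSFM libraries were lower. The log2 fold change of *Cyr61* was -0.80 ± 0.12 (limma, Benjamini-Hochberg adjusted p = 0.000310). The ratio of *Ctgf* to *Cyr61* was 3.56 ± 0.135 in KSFM-Ca2+ and 3.46 ± 0.276 in DKSFM cells, and its ranges overlapped (two-sided exact permutation test, p = 0.7).

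*Ankrd1* (chromosome 19, 36111961 to 36120099, minus strand) encodes an ankyrin repeat protein, abundant in heart muscle, and is a direct YAP/TAZ target. The files list 4.0, 3.0 and 4.9 for KSFM-Ca2+ replicates 1 to 3, and 0.1, 0.2 and 0.2 for DKSFM replicates 1 to 3. Its normalized coverage was 3.05, 2.98 and 5.79 in KSFM-Ca2+ and 0.106, 0.200 and 0.212 in DKSFM libraries. The gene was thus low in the KSFM-Ca2+ cells and at most 1 rounding step above the smallest value above 0 in the DKSFM cells. With an annotated transcript length of 1919 bases and reads of 85 bases, the listed values stand for approximately 90.3, 67.7 and 111 reads in KSFM-Ca2+ and 2.26, 4.52 and 4.52 reads in DKSFM libraries. *Ankrd1* fell, with a log2 fold change of -3.84 ± 0.30 (limma, Benjamini-Hochberg adjusted p = 5.79e-06). The size depends on the pseudocount, being -2.67 with 0.5 and -2.03 with 1, and a filter of 0.5 in every library leaves the gene untested. Its relatives in the muscle ankyrin repeat family did not pass the threshold, *Ankrd23* with 4.19, 3.87 and 3.66 in KSFM-Ca2+ and 3.49, 2.49 and 3.50 in DKSFM libraries, and *Ankrd2* listed at 1.1 or less and 1.2 or less.

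KSFM-Ca2+ replicate 3 was the highest library of its line for all 3 readout genes, and for *Amotl2* and *Tead1*. Its value over the mean of the other 2 KSFM-Ca2+ libraries was 1.24 for *Ctgf*, 1.32 for *Cyr61*, 1.92 for *Ankrd1*, 1.14 for *Amotl2* and 1.05 for *Tead1*. Over the 10625 tested genes that reached 1 in all libraries, this ratio had a median of 0.999 and a 95th percentile of 1.14. The other 4 genes are among these, and *Ankrd1*, with its low coverage, is not and cannot be read against them. Without this library the log2 fold changes were -0.74 for *Ctgf*, -0.67 for *Cyr61* and -3.55 for *Ankrd1*, and all 3 still passed the threshold. It is also the only library of its line whose file is marked as combined, as all DKSFM files are, and what that means is not explained. With the 4 files so marked alone, where the spread of the 3 DKSFM libraries stands for both lines, *Ctgf* (-1.05) and *Cyr61* (-1.07) were called as well, so that 3 of the 10 genes were called lower in place of 1.

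**Figure D3:**
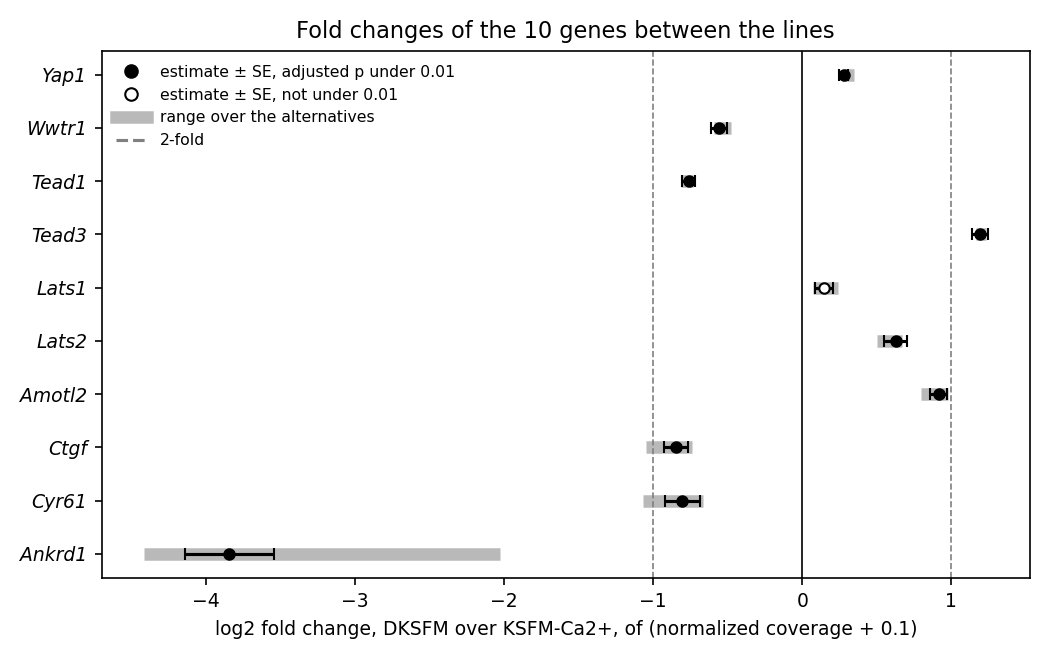
Log2 fold change (DKSFM over KSFM-Ca2+, of normalized coverage + 0.1) of the 10 genes, with points for the estimate, bars for its SE, grey bands for the lowest to highest value over the other settings of the processing, and dashed lines at 2-fold. Only the estimates of *Tead3* and *Ankrd1* lie beyond 2-fold, only *Lats1* (open point) did not pass the threshold, and the band of *Ankrd1* reaches from -4.42 to -2.03.

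The genes nearest to *Ctgf* in their pattern over the 6 libraries, by Euclidean distance of centred log2 values, were *Comtd1* (distance 0.0894), *Txnrd1* (0.0915) and *Klra8* (0.107). *Txnrd1*, the gene of a thioredoxin reductase, had 126, 126 and 153 in KSFM-Ca2+ and 74.9, 72.4 and 71.8 in DKSFM libraries. Like *Ctgf*, it was highest in KSFM-Ca2+ replicate 3, which a choice by pattern favours. The genes nearest to *Ankrd1* were *Rgs16* (0.599), *Cd74* (0.668) and *A830082K12Rik* (0.691), each listed at 0 in all 3 DKSFM libraries.

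The rest of the pathway was read from 4 lists of cofactors, kinases, upstream regulators and binding proteins. Together these held 58 tested genes other than the 10. Of these, 22 passed the threshold as higher and 25 as lower in DKSFM, and 11 did not pass. Past the threshold were 81.0% of them, beside 72.6% of all tested genes, and called were 5 (8.62%), beside 23.7% of all tested genes. Their median log2 fold change was -0.03, and its median size was 0.39, beside 0.49 for all tested genes. For the counts of each list below, 35.3% of all tested genes passed the threshold as higher and 37.3% as lower. Called were 13.1% of all tested genes as higher and 10.6% as lower.

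Among the coactivator, TEAD and Vgll cofactor genes, 8 of 10 were tested, 5 passed the threshold as higher and 2 as lower, and *Tead2* and *Tead3* were called. *Vgll4*, which encodes a protein that competes with YAP for TEAD factors, had 35.1, 37.4 and 36.7 in KSFM-Ca2+ and 60.3, 59.2 and 56.4 in DKSFM libraries. It rose by a log2 fold change of 0.69 ± 0.04 (limma, Benjamini-Hochberg adjusted p = 1.44e-06). *Vgll3*, the gene of another TEAD cofactor, had 24.5, 22.9 and 23.4 in KSFM-Ca2+ and 31.9, 33.5 and 33.0 in DKSFM libraries and also rose (log2 fold change 0.47 ± 0.05, limma, Benjamini-Hochberg adjusted p = 1.95e-05). *Vgll1* was listed at 0.1 or less in every library and *Vgll2* at 0, and neither was tested.

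In the Hippo kinase cascade 19 genes were tested, of which 9 passed the threshold as higher, 9 as lower, and only *Lats1* did not pass. Of all tested genes, most of which differed between the lines, 72.6% passed. *Stk3* (-0.58 ± 0.07) and *Stk4* (-0.21 ± 0.04), which encode the MST kinases upstream of LATS, both fell, while their scaffold gene *Sav1* rose (0.27 ± 0.04). *Mob1a* (-0.50 ± 0.05) and *Mob1b* (-0.40 ± 0.06), which encode LATS cofactors, both fell. These 5 genes were chosen for mention after their values were seen. *Map4k4*, the gene of a kinase that can also activate LATS, was the most abundant of the list and fell from 314 ± 2.27 to 218 ± 3.62. *Map4k1* (1.47 ± 0.287 to 7.66 ± 0.436) and *Stk38l* (35.2 ± 1.37 to 74.9 ± 2.10) were called higher, and treat ends the call of *Stk38l* (Benjamini-Hochberg adjusted p = 0.200). *Tnik* was called lower, with 2.90, 3.07 and 2.48 in KSFM-Ca2+ libraries and listed at 0 in all DKSFM libraries.

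The junctional and polarity regulators upstream of the kinases had 23 tested genes, of which 8 passed as higher, 10 as lower and 5 not at all, with a median log2 fold change of -0.03. *Nf2*, the gene of the tumour suppressor merlin and by its mean over both lines the most abundant of the list, rose from 323 ± 8.93 to 405 ± 3.14 (log2 fold change 0.33 ± 0.03, limma, Benjamini-Hochberg adjusted p = 1.09e-05). *Crb3*, the gene of an apical Crumbs protein and the only one called, fell from 148 ± 11.6 to 62.6 ± 4.18 (-1.24 ± 0.07, limma, Benjamini-Hochberg adjusted p = 6.85e-07). Treat ends this call (Benjamini-Hochberg adjusted p = 0.0241), and 2 genes of the list were called lower under quantile normalization and without DKSFM replicate 2. Among proteins that bind YAP and TAZ or control their turnover, 15 genes were tested, 4 passed as higher, 6 as lower and 5 not at all, and none was called. The most abundant was *Ywhaz*, whose protein can hold phosphorylated YAP in the cytoplasm, with 924 ± 20.8 in KSFM-Ca2+ and 932 ± 20.1 in DKSFM cells, and it did not pass the threshold.

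The published YAP/TAZ target signature of 22 genes holds 5 of the 10 genes, of which *Amotl2* and *Lats2* were higher and *Ctgf*, *Cyr61* and *Ankrd1* lower in DKSFM. Its 17 other genes were likewise divided: 15 were tested, 6 passed the threshold as higher, 7 as lower and 2 not at all, with a median log2 fold change of -0.10. Of all tested genes 35.3% passed as higher and 37.3% as lower, and 13.1% were called higher and 10.6% lower. *Rbms3* (13.7 ± 0.718 to 55.4 ± 0.935) and *Tgfb2* were called higher and *Dock5* (14.5 ± 0.899 to 1.38 ± 0.105) lower. *Tgfb2* was low in both lines, listed at 0.2 or less in KSFM-Ca2+ and at 0.5 to 0.7 in DKSFM libraries, and its log2 fold change went from 2.13 to 0.99 and 0.61 with pseudocounts of 0.5 and 1, which ends the call, as treat does. The most abundant gene was *Axl*, the gene of a receptor tyrosine kinase, with 464 ± 22.4 in KSFM-Ca2+ and 512 ± 9.13 in DKSFM cells (log2 fold change 0.14 ± 0.04, limma, Benjamini-Hochberg adjusted p = 0.00771). *Axl* no longer passed the threshold in several other settings, among them the files marked as combined alone (0.07).

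SRF and its MRTF cofactors answer to actin and share targets with YAP and TAZ. Their list has 20 genes, of which *Acta2*, *Tagln*, *Myl9* and *Cnn1* were listed at 0.4 or less in every library and were not tested. Of the 16 tested genes, 11 passed the threshold as lower in DKSFM, 3 as higher and 2 not at all. Their median log2 fold change was -0.55. Of all tested genes 37.3% passed as lower and 35.3% as higher. Called were 5 lower and 1 higher, beside 10.6% and 13.1% of all tested genes. Called lower were *Tpm4* (1238 ± 57.3 to 407 ± 8.50), *Flna* (474 ± 21.7 to 179 ± 7.17), *Actn1* (755 ± 27.2 to 307 ± 21.6), *Fhl2* (355 ± 15.1 to 161 ± 8.41) and *Actb* (3246 ± 288 to 1614 ± 146). These encode a tropomyosin, a filamin, an alpha-actinin, a LIM-domain protein and beta-actin. *Actb* was the most abundant of the list by its mean over both lines, though not in the DKSFM cells, and its log2 fold change of -1.01 was at the edge of a call. It was -0.99 with relative log expression scaling, -0.94 without KSFM-Ca2+ replicate 3 and -0.93 without DKSFM replicate 2, each of which ends the call. Treat ends the calls of *Actb* and *Fhl2*. *Fhl1*, which encodes another LIM-domain protein, was called higher (0.643 ± 0.326 to 133 ± 2.51).

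**Figure D4:**
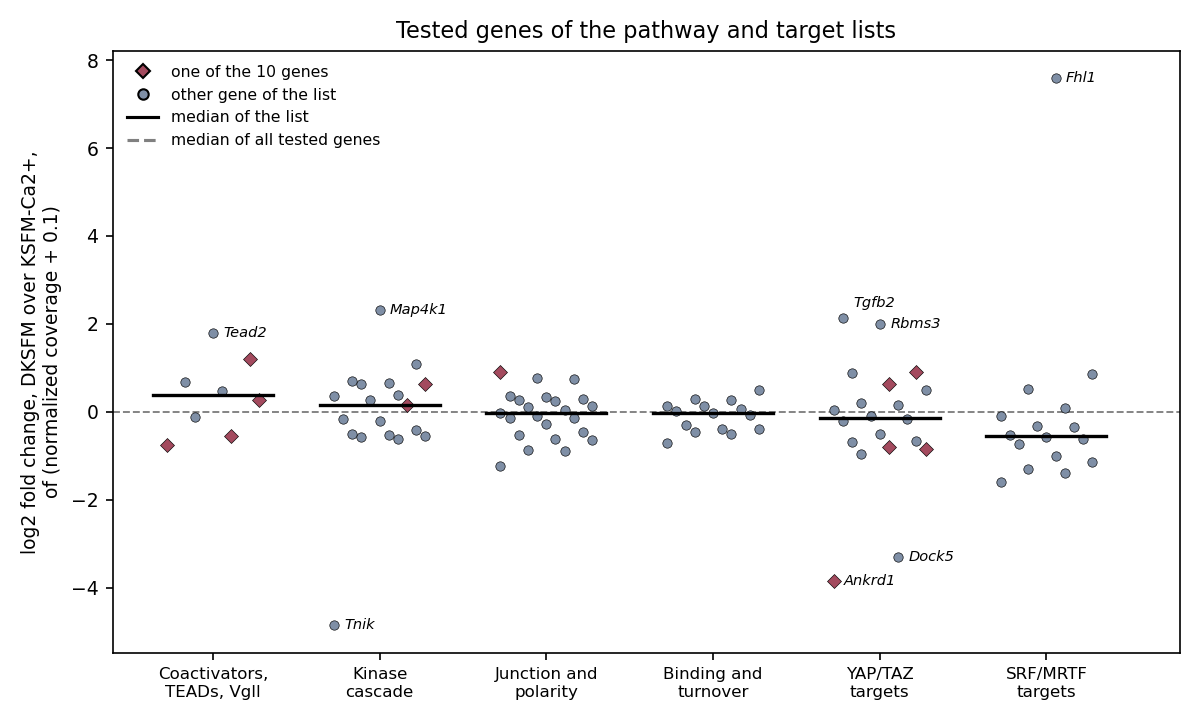
Log2 fold change (DKSFM over KSFM-Ca2+, of normalized coverage + 0.1) of each tested gene of 6 lists, with diamonds for the 10 genes, circles for other genes, a black line at each list's median and a dashed line at the median of all tested genes. Most genes lie within 2-fold, and the medians run from -0.55 (SRF/MRTF) to 0.38 (coactivators, TEADs and Vgll).

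The CCN family, to which *Ctgf* and *Cyr61* belong, did not move as one. *Wisp1* was listed at 0.1 or less in every KSFM-Ca2+ library and had normalized coverages of 14.6, 15.0 and 14.0 in the DKSFM libraries (limma, Benjamini-Hochberg adjusted p = 9.63e-08). *Nov* and *Wisp3* were listed at 0 in all libraries, and *Wisp2* at 0.1 in 1 DKSFM library and at 0 in the others. *Ctgf* was the most abundant CCN gene of both lines, and *Cyr61* stayed above *Wisp1* in the DKSFM cells.

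The surroundings of the 10 genes on their chromosomes are given as a description. The median log2 fold changes of the tested genes within 10 Mb on either side (Mb, megabases) ran from -0.36 around *Tead1* to 0.36 around *Ctgf*. *Tead1* thus moved in the direction of its surroundings and *Ctgf* against it. *Yap1* rose where the median of 45 genes was -0.27, and *Wwtr1* fell where the median of 53 genes was -0.22. The medians over the whole chromosomes of the 10 genes lay between -0.20 and 0.24.

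The label of the cells was checked on markers. All 13 keratinocyte markers were tested, and their summed level was 21901, 22296 and 21879 in KSFM-Ca2+ and 50602, 46917 and 51255 in DKSFM libraries. The most abundant, *Krt14*, had 11991 ± 242 in KSFM-Ca2+ and 29679 ± 1520 in DKSFM cells and carries most of that sum. By gene, 7 of the 13 passed the threshold as higher, 3 as lower and 3 not at all, with a median log2 fold change of 0.13. Of all tested genes 35.3% passed as higher and 37.3% as lower, and 13.1% were called higher and 10.6% lower. *Krt5*, *Krt14*, *Dsp* and *Perp* were called higher, and *Lama3* (362 ± 5.18 to 114 ± 4.10) lower. *Itgb4* (321 ± 6.30 to 192 ± 8.57) and *Cdh1* (160 ± 2.46 to 145 ± 3.32) also fell. Under quantile normalization *Krt14* had a log2 fold change of 0.95, which ends its call. Of 12 fibroblast markers 8 were listed at 0 in every library, *Col1a1*, *Col1a2* and *Col3a1* among them, and the summed level was 8.77, 8.23 and 8.38 in KSFM-Ca2+ and 2.43, 2.30 and 2.33 in DKSFM libraries. The most abundant of these in the KSFM-Ca2+ cells, *Twist2*, had 7.62, 7.34 and 7.08 in KSFM-Ca2+ libraries, was listed at 0.1, 0 and 0 in DKSFM libraries, and was called lower. *Pdgfra*, the only other fibroblast marker tested, rose from 1.11 ± 0.205 to 2.22 ± 0.117 (log2 fold change 0.95 ± 0.16, limma, Benjamini-Hochberg adjusted p = 0.000730). Without KSFM-Ca2+ replicate 3, the count of fibroblast markers called higher went from 0 to 1.

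Muscle markers are given as a description, because muscle also expresses *Ankrd1*. The summed level of the 10 markers was 610, 594 and 577 in KSFM-Ca2+ and 90.5, 87.2 and 97.7 in DKSFM libraries, nearly all of it *Tnnt2*, which was called lower (592 ± 16.4 to 91.1 ± 5.51). *Des*, which was not tested, had 0.610, 0.496 and 0.945 in KSFM-Ca2+ and 0.106, 0 and 0 in DKSFM libraries. For *Des* the files list 0.8, 0.5 and 0.8 for KSFM-Ca2+ replicates 1 to 3, so replicates 1 and 3 differ only by scaling. *Tnnt2* had 608, 593 and 575 in KSFM-Ca2+ replicates 1 to 3. *Acta1* had 1.07, 0.496 and 0.945 in KSFM-Ca2+ and 0.953, 0.200 and 0.212 in DKSFM libraries, overlapped and did not pass the threshold. Without DKSFM replicate 1 *Acta1* was called lower (log2 fold change -1.56, limma, Benjamini-Hochberg adjusted p = 0.00561). The muscle markers called lower, 1 with all libraries, were 3 without that library and 2 without KSFM-Ca2+ replicate 2 or 3, without DKSFM replicate 2 or 3, under quantile normalization and with no filter. *Myod1*, *Actc1* and *Ttn* were listed at 0 in every library. Of 8 melanocyte markers, *Mitf* was the most abundant and was called higher (3.52 ± 0.415 to 17.7 ± 0.672). The summed level was 4.12, 3.97 and 4.61 in KSFM-Ca2+ and 17.3, 18.8 and 18.3 in DKSFM libraries, most of it *Mitf*. *Dct*, *Tyr* and *Kit* were at 0 throughout, and *Mlana*, *Tyrp1* and *Sox10* were listed at 0.2 or less. *Pmel*, which was not tested, had 0.595 ± 0.185 in KSFM-Ca2+ and a lower mean, 0.343 ± 0.145, in DKSFM cells, and it overlapped. *Pecam1* was called higher among 6 endothelial markers (2.78 ± 0.255 to 7.57 ± 0.591), a call that treat ends (Benjamini-Hochberg adjusted p = 0.0133). Their summed level was 2.82, 3.17 and 3.31 in KSFM-Ca2+ and 8.26, 8.28 and 7.42 in DKSFM libraries, nearly all of it *Pecam1*. *Cdh5*, *Emcn* and *Tie1* were at 0 throughout, and *Kdr* and *Tek* were listed at 0.4 or less and not tested. Of 7 leukocyte markers *Cd68* was the most abundant (11.5 ± 0.906 to 17.6 ± 3.63). The summed level was 10.9, 11.2 and 12.6 in KSFM-Ca2+ and 13.7, 18.9 and 20.7 in DKSFM libraries, with *Cd3e* and *Adgre1* at 0 throughout. The part of other cell types in the differences of the 10 genes was not tested.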

How the data were processed

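The authors made strand-specific libraries of poly(A) RNA, read 85 bases from one end, and used STAR with mm10, Salmon and DESeq2. They deposited a signal, the coverage per gene to 1 decimal, not scaled to library size, and how it was computed is not stated. Coverage is not a count, so no count model was used here and no counting interval is given; approximate reads are coverage times the median annotated transcript length over the read length.

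Scaling used trimmed means of M values without weights (30% of M and 5% of A values trimmed; factors 0.990 to 1.01). Tested genes reached 0.5 after scaling in 3 or more libraries. They were fitted on log2(normalized coverage + 0.1) with limma 3.58.1 in R 4.3.3, with an intensity trend and no covariate. P-values were adjusted by Benjamini-Hochberg over all 12409 genes, and the thresholds, 0.01 and 2-fold, follow the study's methods. The procedure was first tested on simulated data. Positions came from GENCODE M21 (24445 genes matched by symbol, 58 by synonym, 479 unmatched), promoter windows from RefSeq. Python 3.11.15 with matplotlib 3.10.9 drew the figures.

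The 10 genes and all lists were chosen with earlier results of these data known. Genes named from the lists are those called, up to 6 in each direction by size, the most abundant of each list, called markers of cells other than keratinocytes, the *Tead*, *Vgll*, *Lats*, CCN and muscle ankyrin repeat families, and the 3 genes nearest to *Ctgf* and to *Ankrd1*. *Amotl1*, *Amot*, *Stk3*, *Stk4*, *Sav1*, *Mob1a*, *Mob1b*, *Krt5*, *Dsp*, *Perp*, *Lama3*, *Itgb4*, *Cdh1*, *Pdgfra*, *Des*, *Acta1*, the markers at 0 and the genes of the closing section outside this rule were chosen after their values were seen. *Pmel*, *Mlana*, *Tyrp1*, *Sox10*, *Kdr*, *Tek* and the untested SRF/MRTF genes were also chosen after their values were seen. *Inadl* and *Map4k6* have no value under these symbols.

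The alternatives were relative log expression, library totals and quantile scaling; pseudocounts of 0.5 and 1; testing all genes above 0, or only those at 0.5 in all 6 libraries; limma without its trend; vooma weights; the replicate number as a block; a threshold of 0.05; limma's treat against 2-fold; omitting 1 library at a time; and the files marked as combined alone.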

Additional observations from a re-analysis of the deposited data

How the results depend on the processing

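Under the 19 alternatives no gene of the 10 changed direction, and of 189 values 181 kept their side of the threshold. The other 8 came from limma's treat, which asks for more than 2-fold: *Yap1* (log2 fold change 0.28), *Wwtr1* (-0.56), *Tead1* (-0.76), *Tead3* (1.19), *Lats2* (0.63), *Amotl2* (0.92), *Ctgf* (-0.85) and *Cyr61* (-0.80) did not pass it, and only *Ankrd1* did. With treat left out, the highest Benjamini-Hochberg adjusted p of the 9 genes past the threshold was 0.00855, for *Lats2* with the files marked as combined, where the lone KSFM-Ca2+ library is assumed to vary like the others. Of the 10 genes, 0 were called higher by treat in place of 1, 0 lower with a filter of 0.5 in every library, which leaves *Ankrd1* untested, and 3 lower with the combined files alone. Over all tested genes, the counts called were 1630 higher and 1316 lower; they were 1057 and 787 by treat, 1298 and 1029 with a pseudocount of 1, and 1026 higher with the filter on every library, which tests fewer genes. Quantile normalization turned the balance, with 1461 higher and 1486 lower. The differences of the *Yap1* and *Tead* shares kept their sign with each library left out. Among 108 other genes of the lists, 1861 of 2044 values were the same, 173 lost the threshold, all in the 90 genes past it, and 4 gained it, and 29 of 532 counts of list genes called moved by over 1.5 times or to or from 0. The 6 other values were reversed, all in genes not past the threshold: *Ywhaz* (-0.0153 with the combined files, and -0.00638 to 0.0308 with each library left out, below 0 without KSFM-Ca2+ replicate 2, -0.00322, or DKSFM replicate 3), *Ptpn11* (0.0179) and *Dsg3* (0.0114) under quantile normalization, and *Dsg3* (0.0411) with the combined files; the cause was not tested. Whether the replicate numbers pair the libraries is not stated. Deviations of same-numbered libraries from their line means correlated at -0.0051, 0.0238 and -0.0061, and not every library correlated best with its own number. With means of only 3 libraries, such correlations could miss a weak pairing. A replicate block gave 1637 genes higher and 1316 lower and changed no call among the 10 genes. The rounding step of 0.1 limits what can be said of *Ankrd1*, *Tgfb2*, *Tnik*, *Twist2*, *Fhl1* and *Wisp1*, which the filter on every library leaves untested.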

Other observations

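Within the KSFM-Ca2+ line, replicate 3 was also the highest library for several genes of the SRF/MRTF list. *Actb* had normalized coverages of 2981, 3206 and 3553 in KSFM-Ca2+ replicates 1 to 3. *Tpm4* had 1184, 1231 and 1298, and *Cnn2*, the gene of a calponin, had 140, 142 and 167. *Yap1*, *Wwtr1* and *Lats1* instead had their lowest KSFM-Ca2+ value in that library. These genes were chosen for mention after their values were seen, and no test was made.

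Among the upstream regulators, of which 8 passed as higher and 10 as lower, 3 genes of LIM-domain proteins rose in the DKSFM cells, *Ajuba* from 97.4 ± 3.17 to 117 ± 1.25, *Limd1* from 15.5 ± 0.142 to 26.4 ± 0.433 and *Wtip* from 24.3 ± 1.26 to 41.0 ± 1.81. The junction genes *Tjp1* (110 ± 1.93 to 79.4 ± 2.53) and *Ctnna1* (343 ± 12.1 to 220 ± 1.21) both fell. These 5 genes too were chosen for mention after their values were seen, and nothing is read from them as groups.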
